A study of Mus musculus with 12 samples.

Results

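The effect of acute contraction on the messenger RNA of mouse calf muscle was compared between libraries with many and libraries with few reads of Myc, using all 12 of the 12 libraries of the study. The libraries were grouped by their own raw Myc reads and not by their labels. A library with 9 or more Myc reads was called Myc-high, and a library with 2 or fewer was called Myc-low, which gave 6 libraries of each status and left none in between. The muscle was the gastrocnemius of 6 female C57BL/6J mice aged 11 weeks, 3 of them labelled as c-myc over-expressing and 3 as controls. Each animal gave a contracted right leg and an uncontracted left leg, so contraction and body side cannot be told apart. The way in which Myc was over-expressed, the cells that carried it, and the time between contraction and sampling are not given in the sources used here. The question was whether contraction changed other genes by the same amount in Myc-high as in Myc-low muscle, that is, (Myc-high contracted minus Myc-high uncontracted) minus (Myc-low contracted minus Myc-low uncontracted), in log2. This interaction was set beside the interaction given by the deposited labels.

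MYC is a transcription factor that pairs with MAX, binds short DNA sequences called E-boxes, and is known for raising the expression of genes for ribosome production, nucleotide synthesis and cell growth. In rodent skeletal muscle, Myc is one of the genes that loading is known to induce, and ribosome production is a known part of muscle growth. Contraction by itself is known to induce immediate early genes, which are transcribed within a short time of a stimulus without new protein synthesis, and genes of the stressed sarcomere.

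The promoters are shown for 3 of the 4 genes called below between Myc-high and Myc-low uncontracted legs, so they were picked by results of these data. Timm10 encodes a chaperone for proteins entering the inner mitochondrial membrane, Nme1 a nucleoside diphosphate kinase, and Ncl the nucleolar protein nucleolin. The sequences are those of RefSeq on build GRCm38.p6, each running from 250 bases before to 50 bases after an annotated transcription start, at chr2:84826771-84827070 (plus strand), chr11:93968223-93968522 (minus strand) and chr1:86359406-86359705 (minus strand). Capitals mark the E-box CACGTG, which reads the same on both strands.
Timm10: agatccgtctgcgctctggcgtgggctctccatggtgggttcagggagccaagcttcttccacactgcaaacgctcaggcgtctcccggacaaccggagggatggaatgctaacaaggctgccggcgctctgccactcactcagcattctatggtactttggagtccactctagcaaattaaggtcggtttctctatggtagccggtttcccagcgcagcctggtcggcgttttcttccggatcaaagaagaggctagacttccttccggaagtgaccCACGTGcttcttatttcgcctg
Nme1: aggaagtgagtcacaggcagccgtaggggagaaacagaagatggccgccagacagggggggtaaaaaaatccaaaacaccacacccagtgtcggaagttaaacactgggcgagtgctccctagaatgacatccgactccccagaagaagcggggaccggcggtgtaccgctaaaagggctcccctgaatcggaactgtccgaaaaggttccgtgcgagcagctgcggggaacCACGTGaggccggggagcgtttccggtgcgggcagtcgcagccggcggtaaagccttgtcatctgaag
Ncl: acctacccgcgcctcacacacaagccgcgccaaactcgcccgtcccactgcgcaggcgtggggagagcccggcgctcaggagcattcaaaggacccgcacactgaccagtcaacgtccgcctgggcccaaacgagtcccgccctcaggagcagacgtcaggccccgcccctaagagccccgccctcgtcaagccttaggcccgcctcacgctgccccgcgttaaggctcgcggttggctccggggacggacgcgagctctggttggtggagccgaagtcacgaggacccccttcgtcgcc
The Timm10 window held the E-box 29 bases after the start, and the Nme1 window shown held it 18 bases before the start. Nme1 has a further annotated start, and its window, not shown, held another E-box 29 bases before that start. The Ncl window did not hold these letters, and neither did the window of Rpl36a, the remaining gene, which is not shown. The E-box was present in 7.15% of all 32851 promoter windows, in 10.64% of the windows of tested genes, and in 12 of the 37 windows matched to a list of textbook MYC targets. It was also present in 12 of 62 windows of rRNA processing genes, 8 of 67 of cytosolic ribosomal protein genes and 7 of 31 of immediate early genes. A match describes the letters and does not show binding.

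The Myc reads that set the groups are given as a description, with no test. Among contracted legs, the Myc-high libraries were those labelled contracted Myc 1, contracted control 2 and contracted control 3, with 32, 10 and 59 reads of Myc (chr15:61985391-61990374, plus strand, build GRCm38, a protein-coding gene). The Myc-low contracted libraries were those labelled contracted control 1, contracted Myc 2 and contracted Myc 3, with 1, 0 and 2 reads. Of these 6 contracted libraries, the 4 numbered 2 and 3 of both genotypes thus had Myc reads that went against their labels. Among uncontracted legs, the libraries labelled Myc 1, 2 and 3 had 11, 9 and 9 reads and were Myc-high, and those labelled control 1, 2 and 3 had 0, 1 and 0 reads and were Myc-low. Reads and labels therefore gave the same groups in uncontracted legs and different groups in contracted legs. The libraries just inside the threshold were uncontracted Myc 2 and uncontracted Myc 3, at 9 reads each, and the one just outside was contracted Myc 3, at 2 reads. Pooled over 3 libraries, the reads were 101 in Myc-high against 3 in Myc-low contracted legs, and 29 in Myc-high against 1 in Myc-low uncontracted legs. Whether the labels of the 4 libraries that go against their reads are right was not tested, and every value by labels, and every fit with the animal as a block, takes them as deposited. As deposited, only animals Myc 1 and control 1 had both legs of the same Myc status. With the animal as a block, these animals alone therefore set the interaction by reads. Contraction at each Myc level then draws partly on libraries of the other level, and Myc-high against Myc-low within a leg is compared through the other leg.

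**Figure D1:**
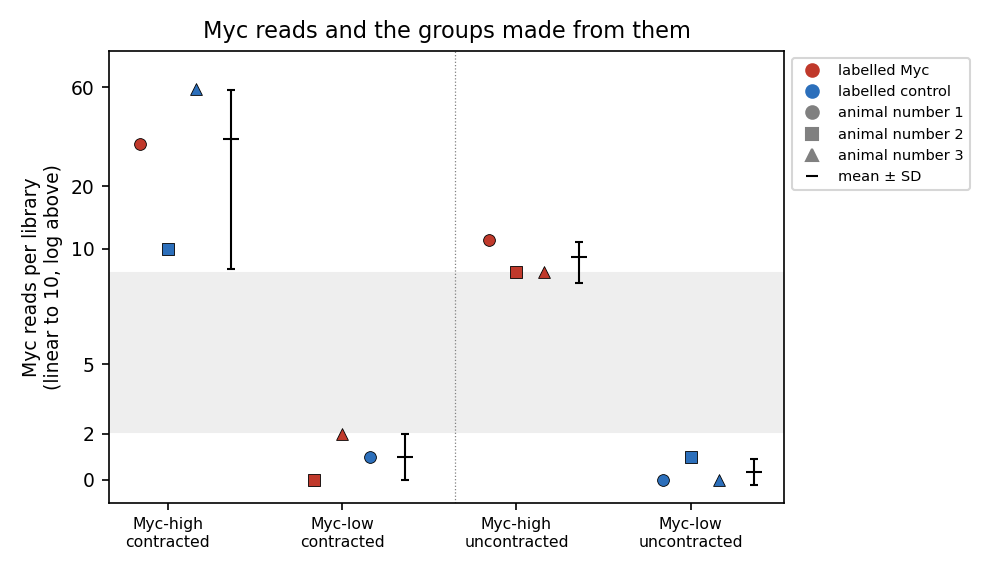
Myc reads in each library (vertical axis, linear to 10 and logarithmic above), by group; colour gives the label, shape the animal number, and bars the mean and SD of 3 libraries. The grey band between 2 and 9 reads holds no library, and both contracted groups mix the 2 labels.

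Total counts were 1371732 to 1643216 per library, and levels are given in CPM, reads divided by the scaled size of the library. A single read equalled 0.601 to 0.775 CPM, and the limit of 3 reads that a count of 0 allows was 1.80 to 2.32 CPM. All 12 muscle fibre markers were measured, with 693982 reads of skeletal actin (Acta1) and 163400 of muscle creatine kinase (Ckm) over the 12 libraries. Mitochondrial transcripts took 27.1 to 35.2% of a library. In bulk muscle, fewer cells of a type and less RNA per cell cannot be told apart.

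The interaction by Myc reads gave no call. Of 6675 genes tested, 0 (0%) passed edgeR's quasi-likelihood test at a Benjamini-Hochberg adjusted p of 0.05, the lowest adjusted p was 0.99984, 209 genes had an unadjusted p under 0.05 (3.13%), and DESeq2 called 0. The median standard error of an interaction was 0.38 on the log2 scale, so small differences in the contraction response were not detectable with 3 libraries per group at this depth. The 78 measured genes of the cytosolic ribosomal protein list, which build the ribosome, had a median interaction by Myc reads of -0.06, and 25 of them were above 0. The 65 measured genes of rRNA processing and nucleolar assembly had a median of -0.06, and the 33 measured textbook MYC targets a median of 0.00. Over all genes the median was -0.01. With the 4 libraries that go against their labels left out, which leaves 1 library in each contracted group and assumes that it varies like the others, the ribosomal protein median turned to 0.07.

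The same lists stood elsewhere when the labels set the groups. In the interaction by labels, 0 of 6676 genes (0%) passed edgeR's test with Benjamini-Hochberg adjustment, 331 had an unadjusted p under 0.05 (4.96%), and DESeq2 called 0. With no filter on low counts 18 genes passed, and without the library labelled contracted Myc 1 the filtered test called 4. The library labelled contracted control 1 or contracted control 3, left out, gave 1 call each. The median interaction by labels was -0.40 for cytosolic ribosomal proteins (4 of 78 above 0), -0.47 for rRNA processing (8 of 65 above 0) and -0.52 for textbook MYC targets (3 of 33 above 0), against a median of 0.00 over all genes. The list of 25 genes of nucleotide, one-carbon and polyamine synthesis had a median of -0.36 by labels and of -0.16 by reads. The 9 measured genes of the RNA polymerase I machinery, which transcribes ribosomal RNA, had medians of -0.36 by labels and -0.06 by reads, and the 48 translation factors and aminoacyl-tRNA synthetases -0.15 by labels and 0.02 by reads. Without the 4 libraries that go against their labels both fits are the same fit, and the medians were 0.07, -0.05 and -0.10 for ribosomal proteins, rRNA processing and textbook MYC targets. The interactions by reads and by labels share all 12 libraries and are not independent, so their values are set side by side and the difference between them was not tested.

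Immediate early and mechanical stress genes lay on the other side of 0 by labels. The 28 measured immediate early genes had a median of 0.52 by labels (25 above 0) and 0.14 by reads (16 above 0). With the animal as a replicate block, where only animals Myc 1 and control 1 set the interaction by reads, the median by reads turned to -0.25. The 21 measured genes of mechanical stress and sarcomere remodelling had a median of 0.36 by labels and -0.04 by reads, and the 35 heat shock and chaperone genes -0.01 by labels and -0.16 by reads.

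**Figure D2:**
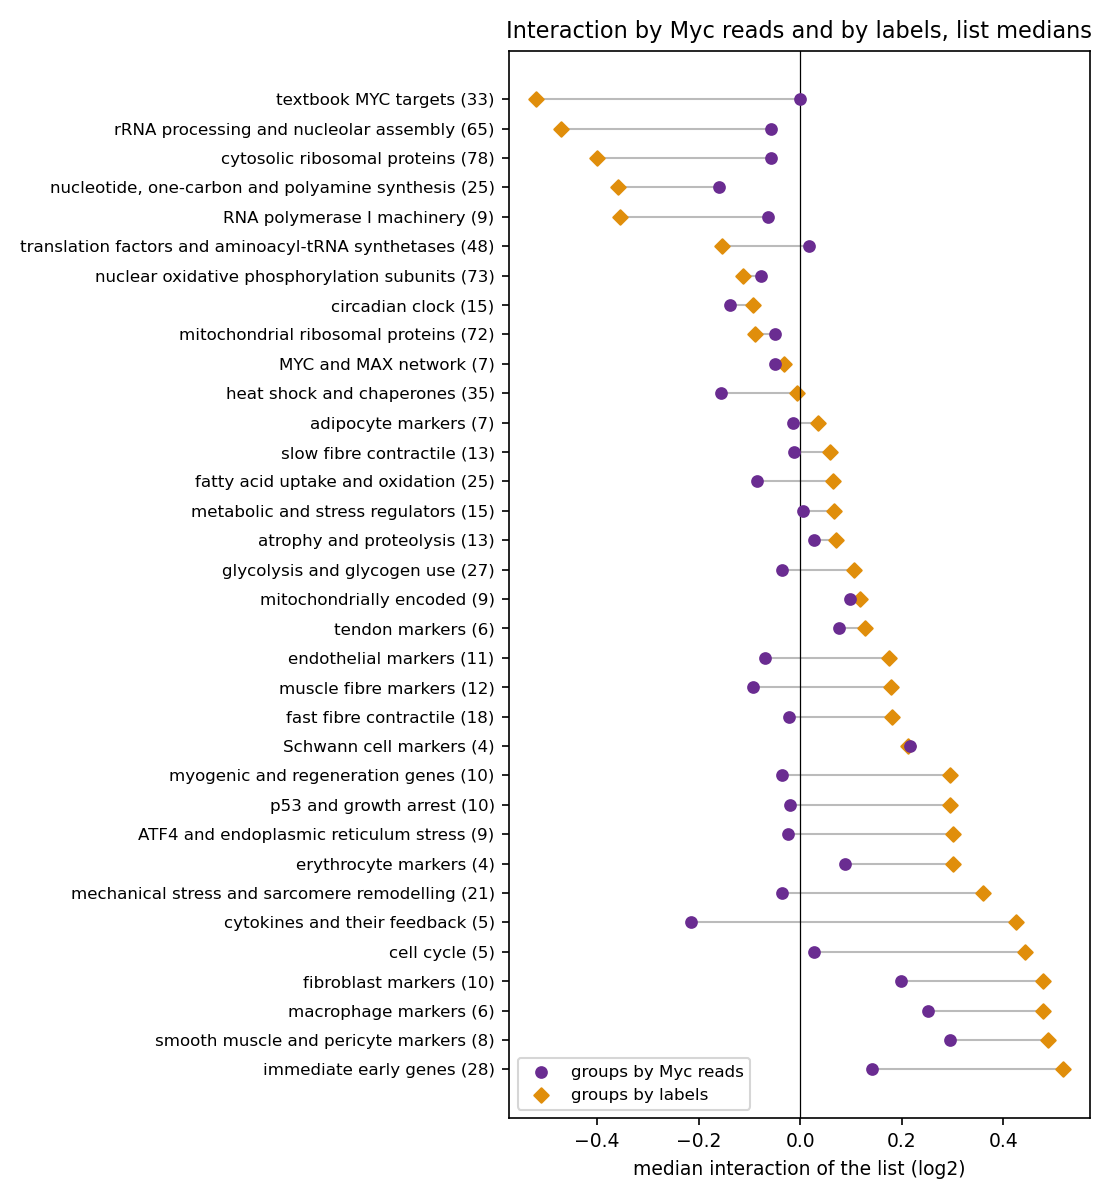
Median interaction (log2, horizontal axis) of each list with at least 3 measured genes, with the number measured in brackets; circles are groups by Myc reads and diamonds groups by labels. The 5 lists lowest by labels, led by textbook MYC targets at -0.52, lie between -0.16 and 0.00 by Myc reads.

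Timm10 (chr2:84826997-84830213, plus strand, GRCm38, protein-coding) had the smallest p of the interaction by labels, and its values are given under both groupings. Because it is the extreme by labels, a larger size by labels than by reads follows in part from that choice. In contracted legs Timm10 had 38.6, 43.4 and 44.0 CPM in the Myc-high libraries labelled Myc 1, control 2 and control 3, against 25.2, 23.0 and 24.6 CPM in the Myc-low libraries labelled control 1, Myc 2 and Myc 3. In uncontracted legs it had 47.9, 52.1 and 42.6 CPM in Myc-high libraries, against 18.5, 21.6 and 18.3 CPM in Myc-low libraries. The Myc-high and Myc-low libraries did not overlap in either leg, whereas the contracted libraries labelled Myc and those labelled control did. The interaction of Timm10 was -0.50 ± 0.25 (SE, 95% interval -1.01 to 0.01) by reads and -1.69 ± 0.33 (-2.37 to -1.01) by labels. By labels the adjusted p was 0.275 by edgeR with Benjamini-Hochberg adjustment, and 0.0174 or 0.0221 when the library labelled contracted control 1 or contracted Myc 1 was left out.

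Ncl (chr1:86344719-86359400, minus strand, GRCm38, protein-coding) had 133, 134 and 140 CPM in Myc-high contracted libraries, against 90.3, 101 and 96.1 CPM in Myc-low contracted libraries. In uncontracted legs the values were 129, 135 and 115 CPM in Myc-high libraries, against 63.7, 82.2 and 77.0 CPM in Myc-low libraries. The groups were apart in both legs, and the lowest group was the uncontracted Myc-low one. The interaction of Ncl was -0.26 ± 0.18 (-0.64 to 0.12) by reads and -0.91 ± 0.24 (-1.42 to -0.41) by labels, which passed in neither case (edgeR, Benjamini-Hochberg adjusted p = 0.854 by labels).

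Nme1 (chr11:93956979-93968521, minus strand, GRCm38, protein-coding) had 53.1, 50.0 and 37.5 CPM in Myc-high contracted libraries, against 30.8, 30.3 and 40.2 CPM in Myc-low contracted libraries, so these groups overlapped. It had 52.9, 54.0 and 53.5 CPM in Myc-high uncontracted libraries, against 23.6, 23.6 and 26.9 CPM in Myc-low uncontracted libraries, which were apart. Its interaction was -0.64 ± 0.25 (-1.17 to -0.12) by reads and -1.06 ± 0.30 (-1.67 to -0.44) by labels. Rpl36a, a protein of the large ribosomal subunit, had an interaction of -0.01 ± 0.17 (-0.36 to 0.35) by reads and -0.76 ± 0.27 (-1.32 to -0.20) by labels. Without the 4 libraries that go against their labels the value of Rpl36a by labels turned to 0.16. None of these values passed edgeR's test after Benjamini-Hochberg adjustment. Timm10, Ncl, Nme1 and Rpl36a are the genes called below as higher in Myc-high uncontracted legs. That difference enters both interactions with a minus sign, so the choice of these genes pulls their interactions down. Ribosomal protein genes and Npm1 have near-identical copies elsewhere in the genome, so the division of reads among copies is uncertain.

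**Figure D3:**
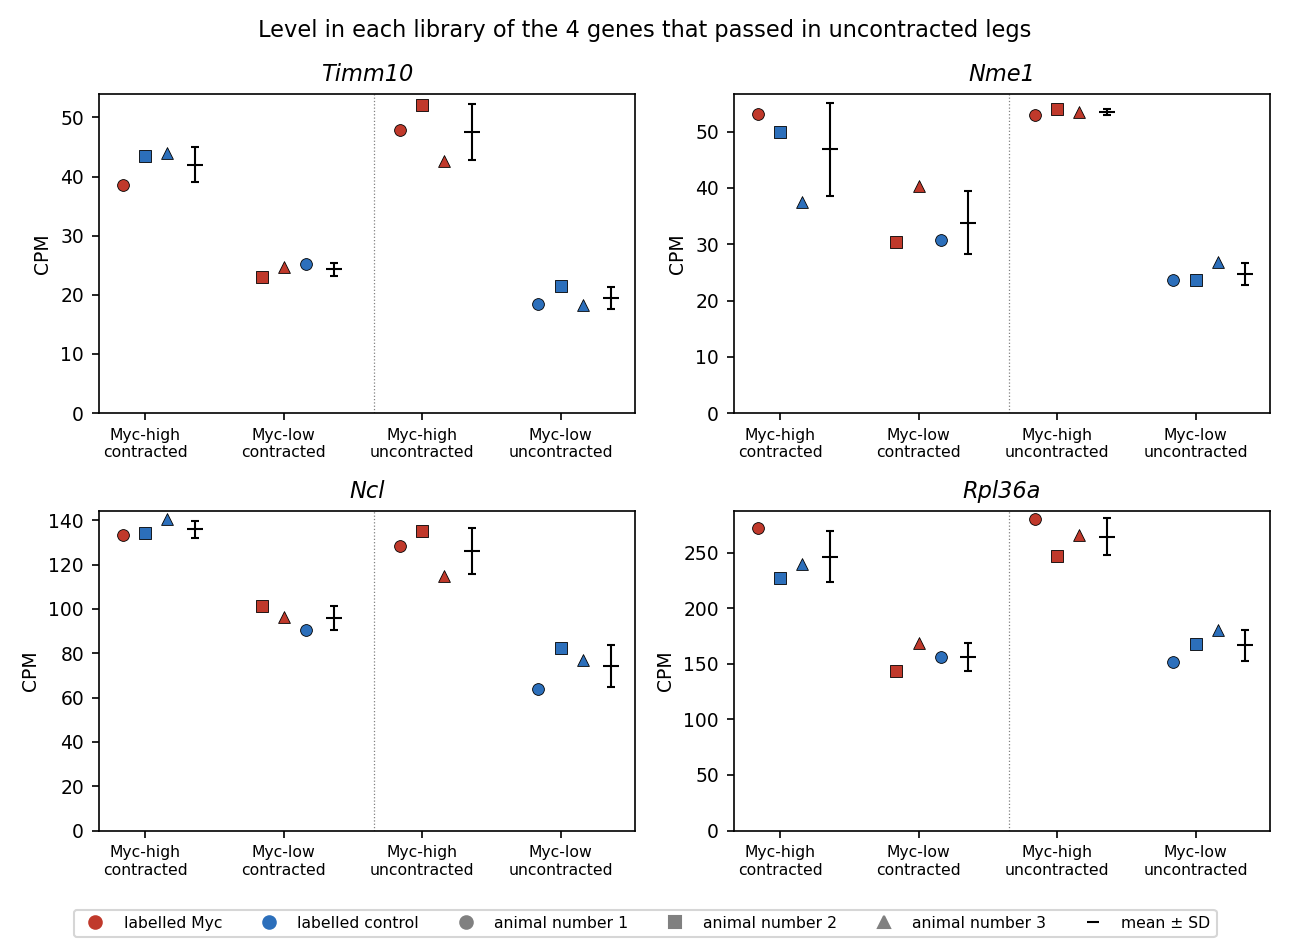
CPM of Timm10, Nme1, Ncl and Rpl36a in each library, by Myc-read status and leg, on axes from 0; colour gives the label, shape the animal number, and bars the mean and SD of 3 libraries. In contracted legs the libraries labelled control 2 and control 3 lie with the one labelled Myc 1, for Timm10 at 38.6 to 44.0 CPM.

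Further genes near the low end by labels encode ribosomal proteins and mitochondrial chaperones or iron uptake, and none of them passed. Rpl27 had an interaction by labels of -0.81 ± 0.22, Rpl11 -0.65 ± 0.18 and Rps19 -0.74 ± 0.21. Tfrc, the transferrin receptor, had -1.02 ± 0.30, Hspd1, the mitochondrial chaperonin, -1.03 ± 0.30, and Phb, prohibitin, -0.90 ± 0.26. Of the alternatives run, Rps19 and Tfrc passed edgeR's test only without the library labelled contracted Myc 1, each at a Benjamini-Hochberg adjusted p of 0.0258. At the high end by labels were Psme1, an activator subunit of the proteasome, at 0.87 ± 0.24, Dusp1, a MAP kinase phosphatase, at 1.29 ± 0.36, Cdkn1c, a cell cycle inhibitor, at 1.89 ± 0.53, and the collagen gene Col1a1 at 1.37 ± 0.39. With no filter on low counts Timm10, Cdkn1c and Col1a1 passed edgeR's test by labels, at Benjamini-Hochberg adjusted p of 1.75e-04, 0.0356 and 5.58e-08. That fit takes in genes with almost no reads, which can change the estimate of spread for every gene. The smaller p-values are thus not read as stronger evidence, and why they differ from the main fit was not tested.

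The genes with the smallest p in the interaction by Myc reads are listed as the extremes of a test without a call, and each had an adjusted p of at least 0.99984. Usp45, a deubiquitinase, had 14.5, 12.5 and 11.6 CPM in Myc-high contracted libraries, against 8.40, 6.67 and 5.41 CPM in Myc-low contracted libraries. It had 10.1, 10.05 and 10.1 CPM in Myc-high uncontracted libraries, against 14.0, 14.2 and 14.7 CPM in Myc-low uncontracted libraries. The contracted libraries thus lay above the uncontracted ones at high Myc and below them at low Myc, an interaction of 1.42 ± 0.37 (0.64 to 2.20), which at about 10 CPM rests on few reads per library. Nfx1, a zinc finger regulator of transcription, had an interaction of 1.34 ± 0.37, Snrpb2, a protein of the U2 splicing particle, 0.91 ± 0.27, Ddx1, an RNA helicase, 0.77 ± 0.24, and Zfhx3, a homeobox transcription factor, 0.95 ± 0.30. On the negative side were Card19 (-1.02 ± 0.30), Dnajb11, a co-chaperone of the endoplasmic reticulum (-1.48 ± 0.45), Mmadhc, which acts in vitamin B12 metabolism (-0.74 ± 0.23), and Dnaja2, a co-chaperone of Hsp70 (-0.64 ± 0.20).

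Srm, the spermidine synthase gene of the polyamine pathway and a textbook MYC target, also stood among the smallest p on the negative side. It had 26.9, 27.6 and 25.9 CPM in Myc-high contracted libraries, against 22.7, 21.4 and 22.5 CPM in Myc-high uncontracted libraries. It had 28.0, 21.8 and 35.4 CPM in Myc-low contracted libraries, against 15.3, 12.1 and 7.94 CPM in Myc-low uncontracted libraries. The lowest group was the Myc-low uncontracted one, and the other groups lay above all its libraries. Contraction changed Srm by 1.27 ± 0.24 in Myc-low libraries (edgeR, Benjamini-Hochberg adjusted p = 0.00257) and by 0.27 ± 0.22 (-0.19 to 0.74) in Myc-high libraries, which did not pass. The call was lost with the animal as a replicate block (adjusted p = 0.24) and without the 4 libraries that go against their labels (adjusted p = 0.107). The test of the difference itself, the interaction of -0.997 ± 0.33 (-1.69 to -0.30) by reads, did not pass, and by labels it was -0.86 ± 0.34.

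The contraction response was present at both Myc levels. In Myc-high libraries contraction changed 187 of 6675 genes (2.8%), 166 higher (2.49%) and 21 lower (0.315%), by edgeR's test at a Benjamini-Hochberg adjusted p of 0.05. In Myc-low libraries it changed 254 (3.81%), 215 higher (3.22%) and 39 lower (0.584%). These comparisons share no library, but they come from the same fit. By the labels they also share the animals numbered 2 and 3 of both genotypes, so they are not independent. Of the genes tested, 143 passed in both, 131 higher and 12 lower in both. That is 76.5% of the Myc-high calls and 56.3% of the Myc-low calls. Of the 298 genes that passed in either, 4 had opposite signs, 103 had the larger absolute log2 change in Myc-high libraries, and the median interaction was -0.09. An unadjusted interaction p under 0.05 by reads was found for 37 of the 298, and for 3.13% of all genes. The 298 were picked by a contraction change that the interaction itself is made from, in the same libraries. Their interaction values are shaped by that choice and cannot be set against those of all genes. DESeq2 called 166 genes in Myc-low libraries, and edgeR with no filter on low counts called 363 in Myc-high libraries. A fit with the animal as a replicate block draws partly on libraries of the other Myc level, since only animals Myc 1 and control 1 kept their status in both legs. With the animal as a replicate block 42 genes passed in Myc-high libraries and 64 in Myc-low libraries, and without the 4 libraries that go against their labels 59 and 67. Leaving out single libraries moved the Myc-high count to 114 (contracted control 3), 109 (uncontracted Myc 2) and 326 (contracted Myc 1), and the Myc-low count to 148 (contracted Myc 2) and 154 (contracted Myc 3).

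**Figure D4:**
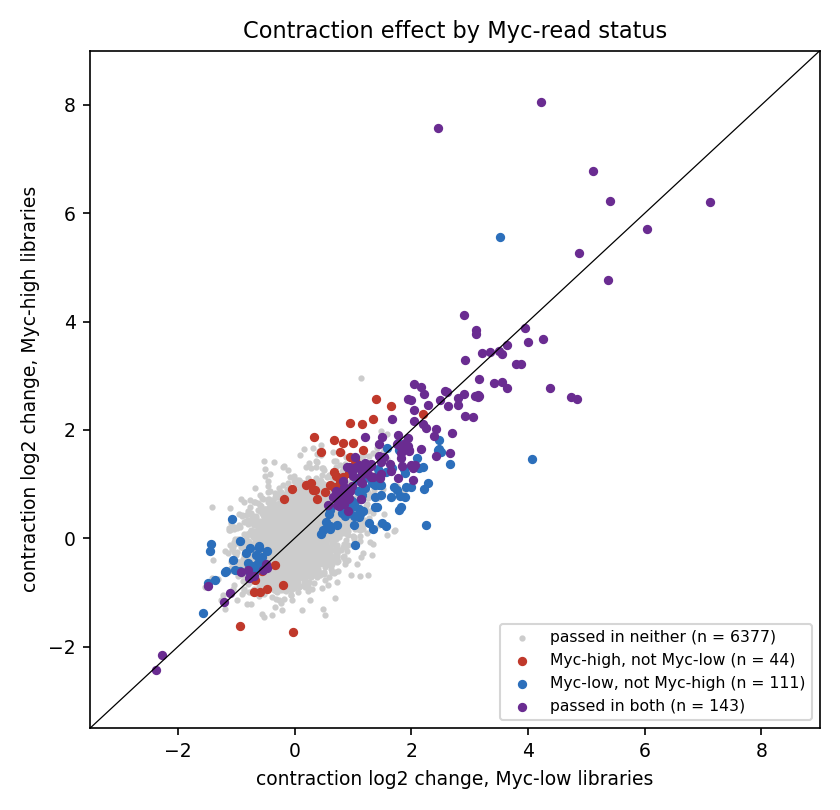
Contraction log2 change of each tested gene in Myc-high libraries (vertical) against Myc-low libraries (horizontal), with the line of equal change; colour gives where the gene passed edgeR's test. The 143 genes that passed in both lie near the line, 131 of them on the higher side.

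At both Myc levels 11 of the 21 measured mechanical stress genes rose, where 2.49% of all genes rose in Myc-high and 3.22% in Myc-low libraries, with medians over the list of 0.87 in Myc-high and 0.78 in Myc-low libraries. Rrad, which encodes a GTPase known to limit calcium channel activity, had 56.6, 149 and 110 CPM in Myc-high contracted libraries, against 1.26, 0.628 and 2.32 CPM in Myc-high uncontracted libraries. In Myc-low libraries it had 123, 170 and 183 CPM in contracted legs, against 1.27, 1.35 and 0.611 CPM in uncontracted legs. Every contracted library was far above every uncontracted one, and the log2 change was 6.21 ± 0.45 in Myc-high and 7.11 ± 0.44 in Myc-low libraries. Ankrd1, a load-sensitive titin-binding protein, averaged 309 ± 132 CPM in contracted and 5.74 ± 0.948 CPM in uncontracted Myc-high libraries (SD, n = 3 each), and 341 ± 132 CPM in contracted and 5.02 ± 3.11 CPM in uncontracted Myc-low libraries. Its change was 5.72 ± 0.41 in Myc-high and 6.04 ± 0.41 in Myc-low libraries. Rrad and Ankrd1 had interactions by reads of -0.90 ± 1.15 (-3.31 to 1.503) and -0.33 ± 0.76 (-1.91 to 1.26), intervals that also hold several-fold differences. Each SE restates its own test, so those of the separate changes do not combine into that of the interaction. For such large changes from few uncontracted reads the SE of a change may be too small.

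Further genes with small p rose at both Myc levels. Mustn1, a small nuclear protein of the musculoskeletal system, averaged 536 ± 77.9 CPM in contracted and 89.2 ± 13.7 CPM in uncontracted Myc-high libraries, a change of 2.59 ± 0.18, and 674 ± 169 CPM in contracted and 96.5 ± 2.94 CPM in uncontracted Myc-low libraries, a change of 2.80 ± 0.17. Xirp1, an actin-binding protein of the sarcomere, averaged 185 ± 53.9 CPM in contracted and 14.8 ± 3.02 CPM in uncontracted Myc-high libraries, and 268 ± 90.4 CPM in contracted and 16.9 ± 8.04 CPM in uncontracted Myc-low libraries, and rose in both (95% intervals of the log2 change 2.98 to 4.27 in Myc-high and 3.38 to 4.62 in Myc-low libraries). Klhl40, a muscle protein that stabilises thin filaments, rose by 2.45 ± 0.24 in Myc-high and 2.63 ± 0.24 in Myc-low libraries. The gene of heparin-binding EGF-like growth factor, Hbegf, rose by 2.69 ± 0.24 in Myc-high and 2.61 ± 0.23 in Myc-low libraries, and the transcription factor gene Klf5 by 2.55 ± 0.25 in Myc-high and 2.49 ± 0.24 in Myc-low libraries. Midn, which encodes midnolin, rose by 2.65 ± 0.22 in Myc-high and 3.14 ± 0.22 in Myc-low libraries.

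Srxn1, which restores oxidised peroxiredoxins, rose by 3.42 ± 0.28 in Myc-high and 3.21 ± 0.26 in Myc-low libraries. The metallothionein gene Mt1 rose by 2.86 ± 0.29 in Myc-high and 3.42 ± 0.30 in Myc-low libraries, the amino acid transporter gene Slc38a2 by 1.90 ± 0.19 in Myc-high and 2.39 ± 0.20 in Myc-low libraries, and the thrombomodulin gene Thbd by 2.95 ± 0.29 in Myc-high and 3.16 ± 0.27 in Myc-low libraries. Of 35 heat shock and chaperone genes 11 rose at each Myc level and none fell, where of all genes 2.49% rose and 0.315% fell in Myc-high and 3.22% rose and 0.584% fell in Myc-low libraries. In that list Dnajb4, a co-chaperone, and Cryab, the small heat shock protein alpha B-crystallin, had the smallest interaction p by reads, at 1.17 ± 0.47 and -0.40 ± 0.18, and neither passed.

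Of 28 immediate early genes 12 rose in Myc-high (2.49% of all genes) and 14 in Myc-low libraries (3.22% of all genes), with medians over the list of 1.02 in Myc-high and 0.93 in Myc-low libraries. Fos, a subunit of the AP-1 transcription factor, had 17, 20 and 33 reads in Myc-high contracted libraries and 0 in each Myc-high uncontracted library, which is at least 23.1-fold higher when the uncontracted group is set at the limit of 3 reads over the group. In Myc-low libraries Fos had 15, 50 and 26 reads in contracted legs, against 11, 5 and 0 reads in uncontracted legs. It passed in both (edgeR, Benjamini-Hochberg adjusted p = 7.84e-04 in Myc-high and 0.0133 in Myc-low libraries), and no interaction is given because its size would depend on the uncontracted zeros. With Fos at that bound the list's medians are the same, since it stays above them. Gadd45g, a stress-induced growth arrest gene, had an interaction by reads of -0.48 ± 0.28, which did not pass.

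Fewer genes fell. Inmt, an N-methyltransferase gene, had 5.52, 10.5 and 5.82 CPM in Myc-high contracted libraries, against 37.2, 44.6 and 37.2 CPM in Myc-high uncontracted libraries, a change of -2.43 ± 0.29. It averaged 5.99 ± 2.13 CPM in contracted and 31.0 ± 8.41 CPM in uncontracted Myc-low libraries, a change of -2.38 ± 0.30 that was no longer called with the animal as a replicate block (edgeR, Benjamini-Hochberg adjusted p = 0.121). Odf3l2 fell by 2.16 ± 0.33 in Myc-high and by 2.27 ± 0.34 in Myc-low libraries, and Lrrc30 by 1.01 ± 0.18 in Myc-high and by 1.11 ± 0.18 in Myc-low libraries. The Lrrc30 calls were lost with the replicate block, at adjusted p of 0.133 and 0.0576, and without the 4 libraries that go against their labels, at 0.119 and 0.155. The clock gene Per3 had changes of -0.89 ± 0.23 in Myc-high and -1.48 ± 0.23 in Myc-low libraries, called in both. Its calls did not survive the replicate block (adjusted p of 0.653 and 0.0787), and the Myc-high call was also lost by DESeq2 (0.208), under library totals (0.0719), without the 4 libraries (0.903), and without contracted control 2, contracted control 3, contracted Myc 3, uncontracted Myc 2 or uncontracted Myc 3, at 0.0516 to 0.202. Without the 4 libraries the Myc-low call was lost too (0.0767).

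Ribosomal protein genes lay higher at high Myc in both legs, and none was called with contraction. In Myc-high libraries contraction changed 0 of 78 cytosolic ribosomal protein genes by edgeR's test with a median of -0.05 (unadjusted p under 0.05 in 0), and in Myc-low libraries 0 of 78 with a median of 0.05 (unadjusted p under 0.05 in 3). DESeq2 called 0 of them at either level. The score of this list, the mean log2 CPM of its genes minus the mean over the 12 libraries, was 0.28, 0.06 and 0.17 in the Myc-high contracted libraries labelled Myc 1, control 2 and control 3, against -0.18, -0.14 and -0.09 in the Myc-low contracted libraries labelled control 1, Myc 2 and Myc 3. In uncontracted legs the scores were 0.24, 0.20 and 0.10 in Myc-high libraries, against -0.34, -0.16 and -0.14 in Myc-low libraries. All 6 Myc-high libraries lay above all 6 Myc-low libraries. For rRNA processing the scores were 0.14, 0.27 and 0.41 in Myc-high contracted libraries, against -0.11, 0.10 and 0.05 in Myc-low contracted libraries. They were 0.05, 0.00 and -0.03 in Myc-high uncontracted libraries, against -0.24, -0.31 and -0.33 in Myc-low uncontracted libraries, so this list was higher with Myc status within each leg and also higher in contracted legs within each status.

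**Figure D5:**
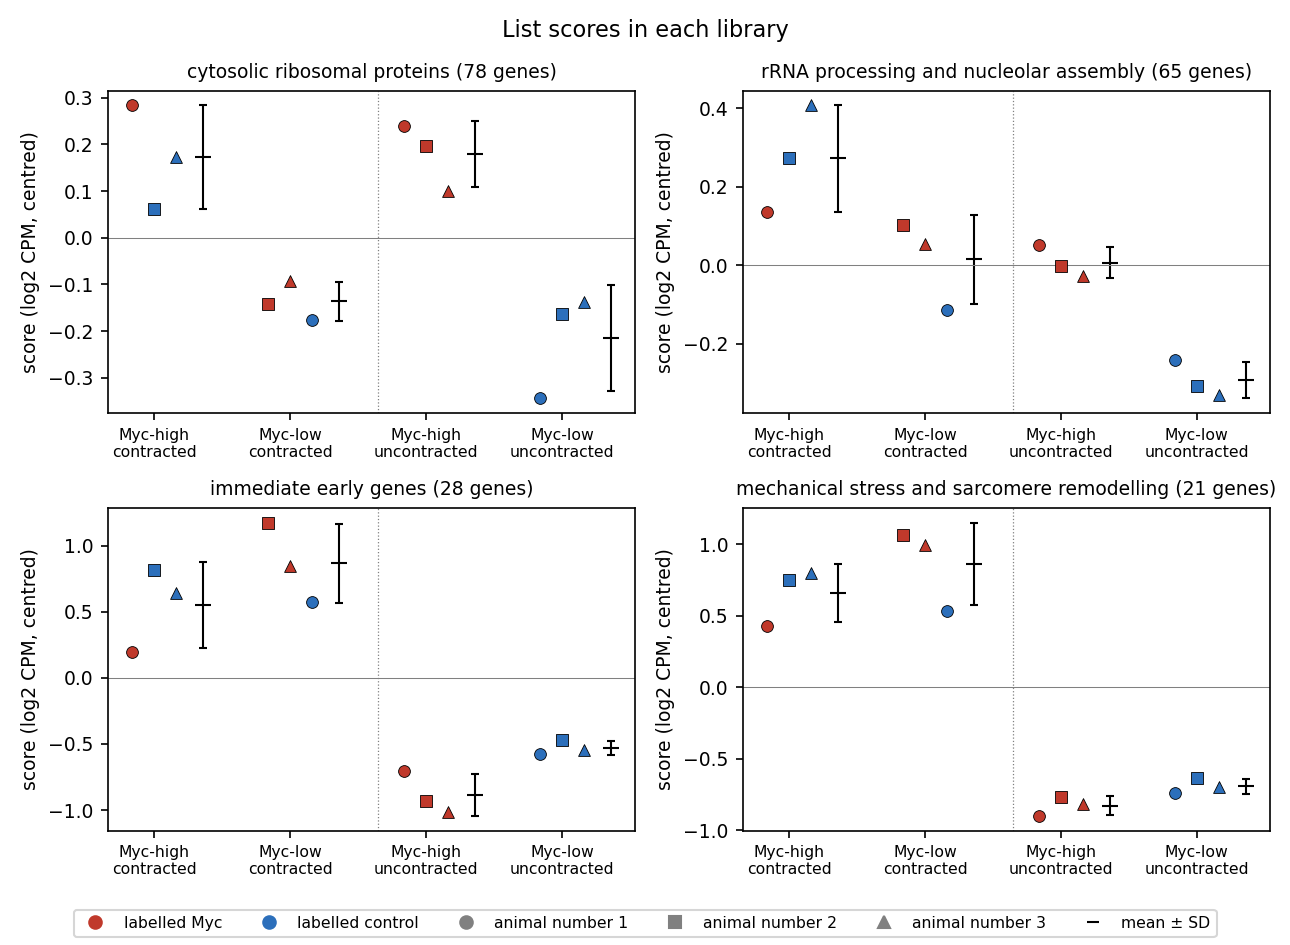
Scores of 4 gene lists in each library (mean log2 CPM of the members, centred on the 12 libraries), by Myc-read status and leg; colour gives the label, shape the animal number, and bars the mean and SD of 3 libraries. Ribosomal protein scores are above 0 in all Myc-high and below 0 in all Myc-low libraries, while immediate early and mechanical stress scores are above 0 in all contracted and below 0 in all uncontracted libraries.

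Gene by gene, Myc-high contracted libraries lay wholly above Myc-low contracted libraries for 46 of 78 ribosomal protein genes, where 5.69% of all tested genes did so, and wholly below for 1. In uncontracted legs this was 53 of 78 against 7.28% of all genes, and 0 lay below. When the contracted libraries were split by label, 0 of the 78 lay wholly above and 1 below, with 4.18% and 3.66% of all genes. For rRNA processing 20 of 65 genes were wholly above in contracted and 18 in uncontracted legs, against 3 of 65 when contracted libraries were split by label. For textbook MYC targets it was 13 of 33 in contracted and 15 in uncontracted legs, against 0 by label. DESeq2 called 14 of the 66 ribosomal protein genes to which it gave an adjusted p in uncontracted legs and 2 of 81 in contracted legs, where it called 19 and 2 genes in all. Of the 78 ribosomal protein genes edgeR called 1 in uncontracted and 0 in contracted legs, where it called 0.0599% and 0% of all genes. The lists and the grouping were chosen with earlier results of these data known, so these counts describe the libraries.

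Few single genes passed between Myc-high and Myc-low libraries of the same leg. In uncontracted legs 4 of 6675 genes (0.0599%) passed edgeR's test with Benjamini-Hochberg adjustment, all higher in Myc-high libraries: Timm10 by 1.29 ± 0.17 (adjusted p = 0.00224), Nme1 by 1.11 ± 0.18 (0.0169), Ncl by 0.77 ± 0.13 (0.0212) and Rpl36a by 0.66 ± 0.12 (0.0297). The number of calls was 0 with the animal as a replicate block, 2 under scaling by library totals, 19 by DESeq2, and 33 with no filter on low counts. No animal had uncontracted legs of both statuses. The block therefore compares them through the contracted libraries, and its 0 rests on those libraries as well. It was 1 or 2 without any 1 uncontracted library and 15 without contracted Myc 1. Timm10 passed with any 1 library left out, whereas Nme1, Ncl and Rpl36a each lost the call without any 1 of the 6 uncontracted libraries, and Rpl36a also without contracted Myc 3 (adjusted p = 0.0515). In contracted legs 0 genes (0%) passed edgeR's test, 479 had an unadjusted p under 0.05, DESeq2 called 2, and 15 passed edgeR's test with no filter on low counts. The same 4 genes had point values there of 0.79 ± 0.17 for Timm10, 0.47 ± 0.18 for Nme1, 0.50 ± 0.13 for Ncl and 0.66 ± 0.12 for Rpl36a, of which Rpl36a passed by DESeq2 (Benjamini-Hochberg adjusted p = 0.0333).

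Some further genes, chosen after their values were seen, show the same order in both legs. Npm1, the nucleolar protein nucleophosmin, had 53.1, 46.1 and 54.3 CPM in Myc-high contracted libraries, against 28.0, 25.5 and 28.2 CPM in Myc-low contracted libraries, and 42.2, 30.8 and 35.6 CPM in Myc-high uncontracted libraries, against 19.8, 27.0 and 22.6 CPM in Myc-low uncontracted libraries. The groups did not overlap in either leg, and the differences were 0.91 ± 0.18 in contracted and 0.65 ± 0.19 in uncontracted legs. Its interaction was 0.26 ± 0.26 by reads, which turned to -0.16 with the replicate block, a value set by animals Myc 1 and control 1 only. By labels its interaction was -0.94 ± 0.38, which turned to 0.29 without the 4 libraries that go against their labels. Pycr1, an enzyme of proline synthesis, averaged 18.6 ± 7.03 CPM in Myc-high and 5.36 ± 2.56 CPM in Myc-low contracted libraries, and 13.4 ± 3.56 CPM in Myc-high and 4.21 ± 1.90 CPM in Myc-low uncontracted libraries. Col1a1 lay the other way, at 343 ± 91.6 CPM in Myc-high and 625 ± 69.1 CPM in Myc-low contracted libraries, and 379 ± 79.4 CPM in Myc-high and 769 ± 301 CPM in Myc-low uncontracted libraries. None of the 3 passed edgeR's test in either leg after Benjamini-Hochberg adjustment. With no filter on low counts Npm1 passed in contracted legs and Pycr1 and Col1a1 in both, and Col1a1 passed in uncontracted legs without uncontracted control 1 or contracted Myc 1 (adjusted p = 0.0201 and 0.0464).

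Of the 12 muscle fibre markers, 6 lay wholly lower and 1 wholly higher in Myc-high contracted libraries (5.93% and 5.69% of all genes), and 4 wholly lower and 1 wholly higher in Myc-high uncontracted libraries (5.56% and 7.28%). The score of this list was -0.09 to -0.05 in Myc-high and 0.05 to 0.11 in Myc-low contracted libraries, and -0.06 to -0.03 in Myc-high and 0.01 to 0.06 in Myc-low uncontracted libraries. The summed level of the 12 muscle fibre markers was 116439 to 122313 CPM in Myc-high and 135280 to 146401 CPM in Myc-low contracted libraries, and 128807 to 134180 CPM in Myc-high and 138415 to 154394 CPM in Myc-low uncontracted libraries. Of 18 fast fibre contractile genes 10 lay wholly lower in Myc-high contracted libraries (5.93% of all genes) and 8 in Myc-high uncontracted libraries (5.56%). Of 13 measured slow fibre contractile genes 0 lay wholly lower in either leg, and 1 lay wholly higher in Myc-high uncontracted libraries. The 11 listed fibroblast markers, of which 10 had enough reads to be tested, summed to 1793 to 2681 CPM in Myc-high and 2274 to 3327 CPM in Myc-low contracted libraries, and to 1742 to 2041 CPM in Myc-high and 2491 to 3278 CPM in Myc-low uncontracted libraries. CPM is a share of a library, and the part of these shifts in the ribosomal protein values was not tested.

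Both neutrophil markers with enough reads to be tested, S100a8 and S100a9, passed edgeR's test with contraction at both Myc levels, on few reads. S100a8, a calcium-binding protein of neutrophils, had 12.4, 5.92 and 45.9 CPM in Myc-high contracted libraries and 0 in each Myc-high uncontracted library, at least 32.3-fold higher with the uncontracted group at the limit of 3 reads. In Myc-low libraries it had 44.1, 1.82 and 31.2 CPM in contracted legs, against 0, 1.35 and 2.44 CPM in uncontracted legs. In Myc-low libraries the contracted and uncontracted values of S100a8 overlapped, and contracted libraries differed widely among themselves. The Benjamini-Hochberg adjusted p of edgeR was 0.0186 for S100a8 and 0.0390 for S100a9 in Myc-high libraries, and 0.0266 for S100a8 and 0.0312 for S100a9 in Myc-low libraries. DESeq2 called S100a8 in Myc-high libraries (adjusted p = 0.00343) and neither gene in Myc-low libraries (0.143 and 0.137). With the animal as a replicate block S100a8 passed in Myc-low libraries (0.00311) but not in Myc-high libraries (0.0797), and S100a9 in neither (0.266 in Myc-high and 0.0787 in Myc-low libraries). The S100a8 call was also lost without contracted control 3, uncontracted Myc 2 or uncontracted Myc 3 in Myc-high libraries (0.0541 to 0.125), and in Myc-low libraries without contracted control 1, contracted Myc 3 or any 1 uncontracted control library (0.0654 to 0.125). S100a9 lost its call without contracted control 3, uncontracted control 3 or any 1 uncontracted Myc library in Myc-high libraries (0.0589 to 0.291), and in Myc-low libraries without contracted Myc 3 or any 1 uncontracted control library (0.0882 to 0.179). It was also lost in Myc-high libraries under library totals (0.0508) and without the 4 libraries that go against their labels (0.0831). Of 12 neutrophil markers 2 were measured, Ly6g, Csf3r and Cxcr2 had 0 reads in all libraries, and the part of these cells in the contraction values was not tested.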

How the data were processed

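Per the labels' protocols, muscle was frozen, its RNA was taken up in Trizol, and a QuantSeq kit that reads messenger RNA from the 3' end gave the libraries. The authors deposited 1 table of raw counts, with whole numbers of reads for each gene. The submitters' processing notes list HTSeq 0.6.0, STAR 2.5.2a, FastQC 0.11.5, SAMtools and, as genome, mm10, without roles or order. No strand setting is stated, so overlapping and antisense genes cannot be told apart, and a 3' tag counts a transgene only if it carries the counted 3' end.

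The deposited counts were analysed in R 4.3.3 with edgeR 4.0.16. Genes were filtered by filterByExpr (minimum count 10), libraries were scaled by TMM, and a quasi-likelihood model with 4 group means was fitted to all 12 libraries and tested by 2-sided F tests, with Benjamini-Hochberg adjustment over all genes tested at 0.05. Myc was left out of every test by Myc reads (6675 genes) and kept by labels (6676 genes). Each SE is the size of the log2 change divided by the square root of F, so it restates the test. CPM use TMM-scaled totals, and list scores use a prior count of 2. Groups by Myc reads came from the readout, and their members, the gene lists and the tests were chosen with earlier results of these data known.

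Named genes were the 10 with the smallest p in each direction of each interaction (mean of at least 10 CPM) and of each other comparison (genes that passed, did not overlap and had a mean of at least 5 CPM), and up to 3 genes per list. The text gives a selection of them made after their values were seen. A gene that the rule names is not reported here. Alternatives were RLE or library-total scaling, DESeq2 1.42.0, the low-count filter dropped or raised to 20 reads in 3 libraries, each library left out, the 4 libraries that go against their labels left out, Myc as a continuous covariate, and the animal as a replicate block. The titles give both legs of an animal the same number and genotype, and this is the pairing that the block uses. The correlation of such legs, after the group means were removed, was -0.122 to 0.112 over the 6 animals. The labels name separate animals per genotype, and p-values measure the spread between these libraries. The fit was also run on simulated counts, with known changes put only into the Myc-high contracted group. Those counts had no other effect of contraction or Myc status and no pairing of legs. The run therefore does not check the fit under such effects. Gene names came from the reference list, which paired 47224 of 47643 identifiers with a symbol. The promoters are RefSeq's, on GRCm38.p6.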

Additional observations from a re-analysis of the deposited data

Results flagged for a closer look

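Grouped by Myc reads, a handful of genes moved with contraction in opposite directions in the Myc-high and the Myc-low libraries, without overlap between contracted and uncontracted libraries. On the log2(CPM + 1) scale, the difference of the mean changes was 1.304 for Usp45, 1.222 for Nfx1 and 0.7323 for Ddx1. It was -0.9738 for Card19 and -0.6261 for Dnaja2. These genes were looked at because their interaction p was among the smallest, the opposite movement itself was not tested, and their interactions did not pass edgeR's test after Benjamini-Hochberg adjustment (adjusted p of at least 0.99984).

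Grouped by labels and taken animal by animal, with the contracted minus the uncontracted leg, every animal labelled Myc moved one way and every animal labelled control the other for a set of genes. The difference of the means was -1.613 for Timm10, on the same scale, with -0.303, -1.14 and -0.767 in Myc animals 1 to 3 and 0.428, 0.977 and 1.22 in control animals 1 to 3. For Timm10, animal 1 of either genotype, whose contracted library has Myc reads that go with its label, had the smallest change of its genotype. Among ribosomal protein and iron uptake genes the differences were -0.7845 for Rpl36a, -0.7913 for Rpl27, -0.6569 for Rpl11, -0.7615 for Rps19 and -1.055 for Tfrc. They were 0.8678 for Psme1, 1.745 for Cdkn1c and 1.407 for the immunoglobulin gene Ighm, and 0.149 for the score of the endothelial markers. The opposite movement was not tested beyond the interaction by labels, in which none of these genes passed. Timm10, Rpl27, Rpl11, Rps19, Tfrc, Psme1 and Cdkn1c were looked at because their p in that interaction was among the smallest. Their opposite movement by label therefore follows in part from that choice. Only list scores and the genes given in the text were looked at, and the share over all genes was not counted.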

How the results depend on the processing

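The interaction by Myc reads gave 0 calls under every alternative run, each library left out included, and 255 genes had an unadjusted p under 0.05 with Myc as a continuous covariate. The interaction by labels gave 0 to 4 calls with 1 library left out, and 18 with no filter on low counts. Contraction gave 109 to 326 calls in Myc-high libraries with 1 library left out, 363 with no filter, and 59 without the 4 libraries that go against their labels. In Myc-low libraries it gave 148 to 362, 166 by DESeq2, and 67 without those 4. Myc-high against Myc-low gave 0 calls in contracted legs with any 1 library left out, 2 by DESeq2 and 15 with no filter. In uncontracted legs it gave 1 to 15 with 1 library left out, 2 under library totals, 19 by DESeq2, 33 with no filter and 2 without the 4 libraries.

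The legs of an animal pair by number. With the animal as a replicate block the calls were 42 for contraction in Myc-high libraries, 64 in Myc-low libraries and 0 in uncontracted legs between the statuses, and both interactions stayed at 0 calls. In that fit animals Myc 1 and control 1 alone set the interaction by Myc reads, so its 0 calls are not a check on all libraries. The uncontracted legs are compared through contracted libraries, and contraction at each Myc level draws partly on libraries of the other level.

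Some values changed sign. Rpl36a, interaction by Myc reads, was 0.00694 with RLE scaling, 3.63e-04 by DESeq2, 0.0193 with the stricter filter, 0.16 without the 4 libraries and -0.0897 to 0.0768 with 1 library left out. In the same interaction, Npm1 was -0.16 with the block, a value set by animals Myc 1 and control 1 only. Ankrd1, also in the interaction by Myc reads, was 0.00505 without contracted Myc 2 and -0.958 to 0.00505 with any 1 library left out. By labels, Rpl36a and Npm1, at -0.76 and -0.94, turned to 0.16 and 0.29 without the 4 libraries. The cause was not tested. With 3 libraries a group genes under about 10 CPM rest on few reads.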

Other observations

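The 72 measured mitochondrial ribosomal protein genes had a median interaction of -0.05 by reads and -0.09 by labels, and the 73 nuclear genes of oxidative phosphorylation -0.08 by reads and -0.11 by labels, without a call in either. The 7 listed erythrocyte markers, globin genes among them, summed to 399 to 1009 CPM in Myc-high contracted libraries and 353 to 410 CPM in Myc-high uncontracted libraries. In Myc-low libraries they summed to 424 to 728 CPM in contracted legs and 310 to 463 CPM in uncontracted legs, and of the 4 with enough reads to be tested 1 rose with contraction at each Myc level, where 2.49% of all genes rose in Myc-high and 3.22% in Myc-low libraries.

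The immunoglobulin heavy chain gene Ighm, the 1 lymphocyte marker with enough reads to be tested, had 4.14, 1.97 and 5.18 CPM in Myc-high contracted libraries, against 9.80, 9.09 and 7.21 CPM in Myc-low contracted libraries. In uncontracted legs it had 2.52, 4.40 and 6.199 CPM in Myc-high libraries, against 10.2, 10.1 and 8.55 CPM in Myc-low libraries. The Myc-high and Myc-low libraries did not overlap in either leg, at a few reads per library, and the gene was chosen after its values were seen.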
